A study of Mus musculus with 16 samples.

Results

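Genes of glycolysis and of the response to low oxygen were followed in cultured mouse spermatogonial stem cells in which 1 of 3 transcription factors had been knocked down. The set holds 40 genes listed by name from what the genes are known to do, with no threshold on their values: 19 glycolytic enzymes and their regulators, 6 transporters and pyruvate dehydrogenase kinases, and 15 other genes that hypoxia is known to induce or that sense oxygen. They were chosen with earlier results of these data known, so that counts of members beside the share of all genes describe the list and test nothing. Each gene was read from 1 probe set, the one with the highest mean over the 16 arrays. Of the 40 genes, 36 had a probe set of their own, among 18193 genes on the array that did, and 34 were bright enough to be tested, among 11145 tested genes. Gpi1 and Eno1 are not analysed here, since the probe annotation used held neither name. Bnip3l was left out because its probe sets are shared with a pseudogene, and Gapdh because only its control probe sets were assigned to it alone. The lactate exporter gene Slc16a3 read between 5.17 and 8.21 and the carbonic anhydrase gene Car9 between 3.91 and 4.10 on all 16 arrays, and neither was tested.

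The cultures had been founded with Thy1+ testis cells from mice of the C57BL/6 strain and grew in serum-free medium with GDNF (20 ng/ml), its co-receptor GFRA1 (150 ng/ml) and FGF2 (1 ng/ml). All 4 groups, of 4 arrays each, had received a short interfering RNA (siRNA) for 30 h: a negative control, or one against Etv5, Bcl6b or Pou3f1. These encode an ETS factor, a zinc finger repressor and a POU factor that act downstream of GDNF in these cells. RNA of the bulk culture was hybridised to 3'-based expression arrays, so that fewer cells of a type and less RNA per cell cannot be told apart.

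Glycolysis splits glucose into pyruvate, which lactate dehydrogenase reduces to lactate when mitochondria do not take it up. Low oxygen stabilises the factor HIF-1alpha, encoded by Hif1a, by stopping the prolyl hydroxylases of the Egln family, and HIF then raises glucose uptake, most glycolytic enzymes, the kinase that closes pyruvate dehydrogenase, and mitophagy receptors such as BNIP3. Spermatogonial stem cells are known for a glycolytic metabolism, and their cultures are often kept at lowered oxygen, but the labels give no oxygen level for these.

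Knockdown lowered each target: the log2 difference from control was -1.49 ± 0.21 (SE here and in all log2 differences, n = 4 against 4) for Etv5, -1.01 ± 0.12 for Bcl6b and -0.68 ± 0.098 for Pou3f1 (limma adjusted p 0.00115, 0.000167 and 0.00103). One array stood apart, replicate 1 of the Bcl6b knockdown. Its 3' Gapdh control probe set read 1.03 above the 5' one on the log2 scale, against -0.53 to -0.45 on the other 15 arrays, and it correlated with other arrays at 0.964 on average, against 0.993 to 0.995. Calls of members are therefore given with 16 arrays and in a fit of 15 arrays without it. Of the germ cell markers 12 of 12 with a probe set passed the brightness filter. All 14 fibroblast markers passed it too, and their summed intensity ran from 190927 to 192306 in control, 198236 to 208380 in Etv5, 191737 to 201532 in Bcl6b and 192886 to 198254 in Pou3f1 knockdown. Of these markers Vim, an intermediate filament gene, rose in all 3 knockdowns with 16 arrays, and the median log2 difference of the 14 was 0.03 in Etv5, -0.02 in Bcl6b and -0.04 in Pou3f1 knockdown. Without the array that stood apart, 4 of the 14 rose in Etv5 and 2 in Bcl6b knockdown, and 2 rose and 3 fell in Pou3f1 knockdown. In that fit 9.52%, 10.9% and 11.4% of all genes were called in Etv5, Bcl6b and Pou3f1 knockdown. Of 7 endothelial markers only Plvap passed, and Pecam1, Cdh5, Kdr, Tek, Tie1 and Emcn did not. The 7 summed to 271 to 298 in control, 113 to 208 in Etv5, 300 to 388 in Bcl6b and 228 to 295 in Pou3f1 knockdown. Of 8 macrophage and leukocyte, 9 Sertoli, 6 Leydig and 5 myoid markers, 5, 3, 3 and 2 passed. With 15 arrays Lyz2 fell and Clu rose in Etv5 knockdown, Star fell in Bcl6b knockdown, and Clu and Hsd3b1 rose in Pou3f1 knockdown. In control the fibroblast markers stood at a median percentile of 98.9 among genes with a probe set, and the germ cell markers at 89.7. The germ cell markers, Etv5 among them, summed to 52092 to 53228 in control and 51036 to 53441 in Etv5 knockdown. They summed to 44423 to 53579 in Bcl6b knockdown, where replicate 1 was the lowest, and 52521 to 56099 in Pou3f1 knockdown. With 16 arrays 1 of these 12 was called in each knockdown (2.09%, 3.21% and 2.25% of all genes). Etv5 fell in its own knockdown, and Ret rose in both others. With 15 arrays Zbtb16 and Uchl1 rose and Etv5 and Sall4 fell in Etv5 knockdown. Ret rose in Bcl6b knockdown, and Ret and Zbtb16 rose in Pou3f1 knockdown. The part of other cells in the results below was not tested. Since the labels leave unsaid whether each replicate was a culture of its own, the p-values speak of the scatter among these arrays, possibly a technical one, and the number of arrays limits the precision.

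With all 16 arrays, 4 members changed, and all of them rose. Bnip3, a mitophagy receptor of the outer mitochondrial membrane, rose in all 3 knockdowns. Pdk1, the kinase that shuts pyruvate out of the citrate cycle, rose in Pou3f1 knockdown. Eno2, the neuronal-type enolase, and Ankrd37, a small ankyrin repeat protein gene known as a HIF target, rose in Bcl6b knockdown. Members were called changed at an adjusted p under 0.05 in limma, adjusted over all tested genes. In Etv5 knockdown this was 1 of 34 members, where 2.09% of all tested genes were called (1.31% higher and 0.781% lower). In Bcl6b knockdown it was 3 of 34 with 3.21% of all genes called (1.65% higher and 1.56% lower), and in Pou3f1 knockdown 2 of 34 with 2.25% (1.03% higher and 1.22% lower). At an unadjusted p under 0.05 the members numbered 12 (11% of all genes), 12 (19.6%) and 8 (12.2%).

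Without Bcl6b knockdown replicate 1, 17 members were called in at least 1 knockdown. In Etv5 knockdown 12 rose and 1 fell, where 9.52% of all genes were called (4.58% higher and 4.94% lower). In Bcl6b knockdown 9 rose and none fell, where 10.9% were called (4.07% higher and 6.87% lower), and 2 others were negative at an unadjusted p under 0.05. Such a p in either direction was found there for 17 of 34 members and 26.2% of all genes. In Pou3f1 knockdown 8 rose and 1 fell, where 11.4% were called (4.3% higher and 7.08% lower). Median residual SD over all tested genes was 0.134 on the log2 scale with 16 arrays and 0.0841 with 15, and over the members 0.115 and 0.0650. The 3 comparisons share the control arrays, so that a rise in all of them rests each time on the same 4 arrays. Bnip3, Hif1a, Ankrd37 and Tpi1 rose in all 3 knockdowns in the 15-array fit, as did 200 of all genes (1.79%), and with 16 arrays Bnip3 was the only member among 68 such genes (0.61%).

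**Figure D1:**
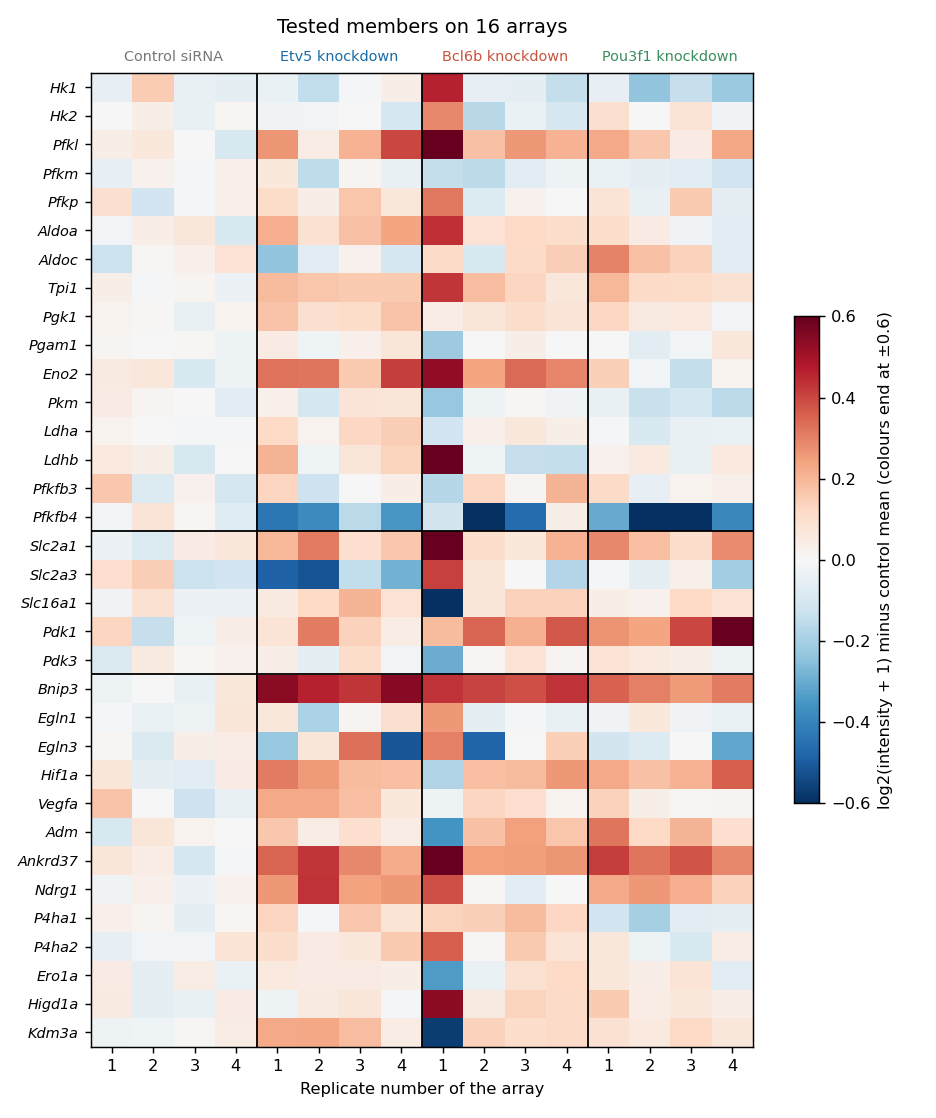
Heat map of the 34 tested members (lines) on 16 arrays (columns, by group and replicate number), as log2(intensity + 1) minus the control mean of the gene, red for higher and blue for lower, with lines between glycolytic enzymes, transporters and pyruvate dehydrogenase kinases, and other hypoxia response genes. Bnip3 and Ankrd37 are red on all 12 knockdown arrays, and the first Bcl6b knockdown column differs from its neighbours in many genes.

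Class means were followed array by array. The shift is the mean over a class of each gene's log2 value minus its control mean, and it is a description of the members with no test. Other hypoxia response genes (13 tested) stood at 0.168, 0.162, 0.178 and 0.0929 on the 4 Etv5 knockdown arrays, at 0.125, 0.0702, 0.136 and 0.139 in Bcl6b and at 0.140, 0.0850, 0.105 and 0.0677 in Pou3f1 knockdown. All 12 arrays lay above the control arrays, which ran from -0.0307 to 0.0269. The 5 transporters and kinases stood at 0.103, 0.122, 0.0995 and 0.112 in Bcl6b and at 0.135, 0.0887, 0.139 and 0.152 in Pou3f1 knockdown, above the control range of -0.0270 to 0.0170. In Etv5 knockdown they ran from -0.0222 to 0.0812 and overlapped the controls. The 16 glycolytic enzymes did not lie on 1 side of the controls in any knockdown. In Etv5 knockdown they stood at 0.0704, -0.0163, 0.0721 and 0.0843, and in Pou3f1 knockdown at 0.0613, -0.0449, -0.0406 and -0.0397, with the controls between -0.0253 and 0.0201. In Bcl6b knockdown they read 0.216 on replicate 1 and -0.0226, 0.0290 and 0.0463 on the others, so that the mean of 0.0672 ± 0.103 (SD, n = 4) fell to 0.0176 ± 0.0359 (n = 3) without that array. The mean over all tested genes shifted by -0.0207 in Etv5, -0.0107 in Bcl6b and -0.0191 in Pou3f1 knockdown.

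**Figure D2:**
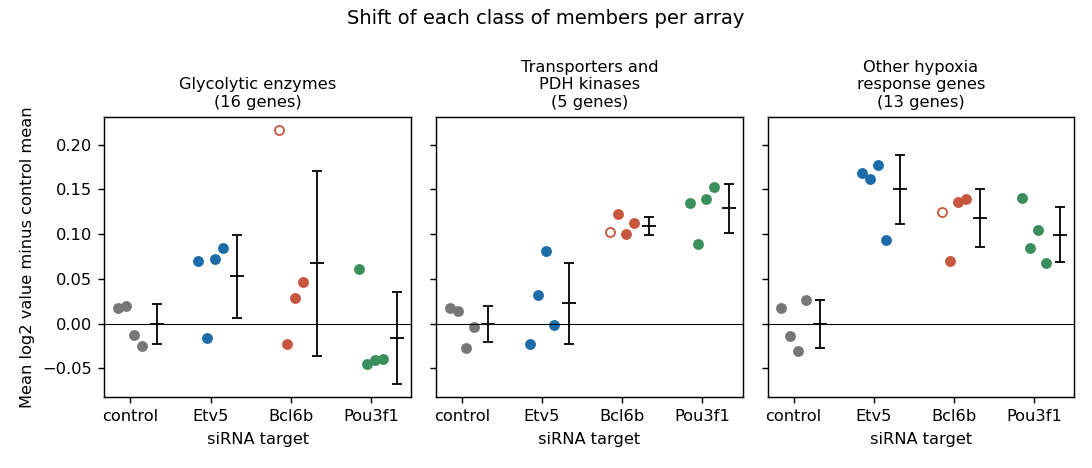
Mean log2 value of each class of members minus its control mean (vertical axis) on each array (points), by siRNA target, with the mean and SD of the group as a bar beside the points. The open point is Bcl6b knockdown replicate 1, which lies at 0.216 for glycolytic enzymes but among the other 3 arrays for both remaining classes. Single genes of these 2 classes departed both ways on that array from the mean of the group's other arrays. Departures ran from -0.71 (Slc16a1) to 0.68 (Slc2a1) and from -0.69 (Kdm3a) to 0.44 (Higd1a) on the log2 scale, so that such means can hide them.

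Of the 34 members, 26 differences from control were positive in Etv5, 24 in Bcl6b and 23 in Pou3f1 knockdown with 16 arrays. All 4 knockdown arrays lay above all 4 control arrays for 10 members in Etv5 knockdown (6.9% of all genes), for 10 in Bcl6b (5.25%) and for 9 in Pou3f1 knockdown (6.4%). They lay below them for 2 members in Etv5 (10.4% of all genes), none in Bcl6b (9.46%) and 2 in Pou3f1 knockdown (11.7%). Without its replicate 1, Bcl6b knockdown had 14 members above all controls (8.14% of all genes) and none below (19.3%). The median log2 difference of the members was 0.0945 in Etv5, 0.0688 in Bcl6b and 0.0373 in Pou3f1 knockdown, beside -0.0262, -0.0103 and -0.0243 over all tested genes.

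**Figure D3:**
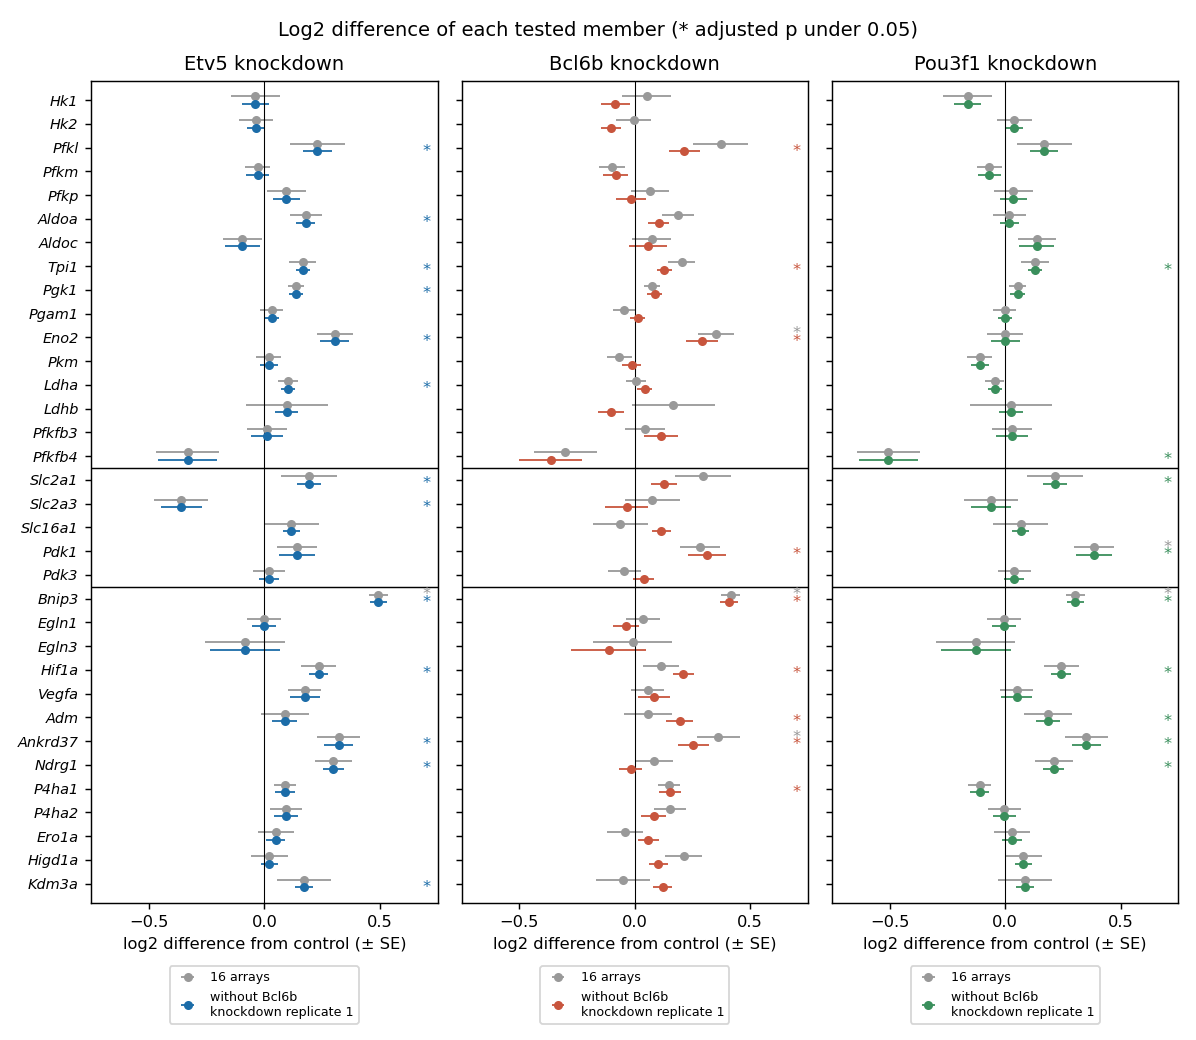
Log2 difference from control (horizontal axis, bars are SE) of each tested member in the 3 knockdowns, in grey with all 16 arrays and in colour without Bcl6b knockdown replicate 1, with an asterisk of the same colour where the limma adjusted p was under 0.05. Bnip3 is the only member with both asterisks in all 3 panels, and the grey bars of Ldhb, Pfkl, Slc2a1 and Kdm3a are wider than the coloured ones.

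HIF binds short sites with the core ACGTG or GCGTG, so the windows upstream of the 4 members called with 16 arrays are shown. They come from RefSeq (GRCm38.p6) and run from 250 bases before the gene's start to 50 after it, 5′ to 3′ on the gene's strand, with capitals where ACGTG or GCGTG matches on either strand. Bnip3 lies at chr7:138909457-138909756 on the minus strand, Eno2 at chr6:124769624-124769923 on the minus strand, Pdk1 at chr2:71872974-71873273 on the plus strand (1 of 2 windows of that gene, the one at the annotated gene start) and Ankrd37 at chr8:45999801-46000100 on the minus strand.
Bnip3: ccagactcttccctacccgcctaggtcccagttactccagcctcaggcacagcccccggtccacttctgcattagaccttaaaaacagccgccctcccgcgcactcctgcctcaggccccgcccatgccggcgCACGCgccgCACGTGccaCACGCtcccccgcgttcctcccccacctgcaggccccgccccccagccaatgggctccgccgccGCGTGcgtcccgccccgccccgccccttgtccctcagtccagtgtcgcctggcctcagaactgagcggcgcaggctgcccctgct
Eno2: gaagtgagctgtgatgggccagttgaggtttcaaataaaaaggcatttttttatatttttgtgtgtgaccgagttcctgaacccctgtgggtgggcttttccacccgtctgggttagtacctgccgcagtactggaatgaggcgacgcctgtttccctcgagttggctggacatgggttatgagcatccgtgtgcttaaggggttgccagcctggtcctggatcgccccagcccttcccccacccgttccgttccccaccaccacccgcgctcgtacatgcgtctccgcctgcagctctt
Pdk1: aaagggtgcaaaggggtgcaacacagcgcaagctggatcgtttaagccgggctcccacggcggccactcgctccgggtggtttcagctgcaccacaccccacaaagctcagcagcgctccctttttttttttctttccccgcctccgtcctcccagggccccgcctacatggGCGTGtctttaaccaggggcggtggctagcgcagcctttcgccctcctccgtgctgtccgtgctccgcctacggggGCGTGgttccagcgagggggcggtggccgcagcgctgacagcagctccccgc
Ankrd37: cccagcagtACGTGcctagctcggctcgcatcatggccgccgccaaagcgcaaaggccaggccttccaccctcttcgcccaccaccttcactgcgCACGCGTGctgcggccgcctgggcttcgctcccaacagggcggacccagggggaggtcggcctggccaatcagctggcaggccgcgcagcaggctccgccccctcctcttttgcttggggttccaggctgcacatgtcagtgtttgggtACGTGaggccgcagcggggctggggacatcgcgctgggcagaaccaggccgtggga
Counted on both strands, the Bnip3 window held ACGTG 2 times, both within 1 palindromic CACGTG, and GCGTG 3 times. The Ankrd37 window held ACGTG 2 times and GCGTG 2 times, with both GCGTG matches overlapping in CACGCGTG. The Pdk1 window held GCGTG 2 times and the Eno2 window neither word. Of 27025 genes with such a window, 19.6% held ACGTG, 32.5% GCGTG and 43.8% at least 1 of them. Of the 37 members with a window (Ndrg1, Slc2a3 and Bnip3l had none in the table), the shares were 59.5%, 59.5% and 81.1%. The members were listed as known genes of glycolysis and hypoxia, and the 27025 genes include many that were not tested here. The shares are therefore a description, not a test. A match is a string of letters and not a bound site, and the GCGTG word was added to the search after the comparisons had been set.

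The 4 control arrays read 2204, 2256, 2182 and 2357 for Bnip3, in the order of replicates 1 to 4 that is used throughout. The Etv5 knockdown arrays read 3269.9, 3096, 3029.7 and 3279.7, those of Bcl6b knockdown 3035, 2983, 2939 and 3034, and those of Pou3f1 knockdown 2869.6, 2776, 2684 and 2778. Every knockdown array lay above every control array, and all Pou3f1 knockdown arrays lay below all arrays of both other knockdowns. The log2 difference from control was 0.49 ± 0.041 in Etv5 (limma adjusted p 1.07e-05), 0.41 ± 0.041 in Bcl6b (3.92e-05) and 0.30 ± 0.041 in Pou3f1 knockdown (0.000634). Bcl6b knockdown replicate 1 read 3035 beside 3034 for the highest of its group's other arrays, and without it the Bcl6b difference was 0.41 ± 0.039. Bnip3 kept its call in each knockdown in all 26 other settings, with adjusted p from 1.68e-09 to 0.000115 in Etv5, 3.57e-08 to 0.0112 in Bcl6b and 2.31e-06 to 0.00467 in Pou3f1 knockdown.

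**Figure D4:**
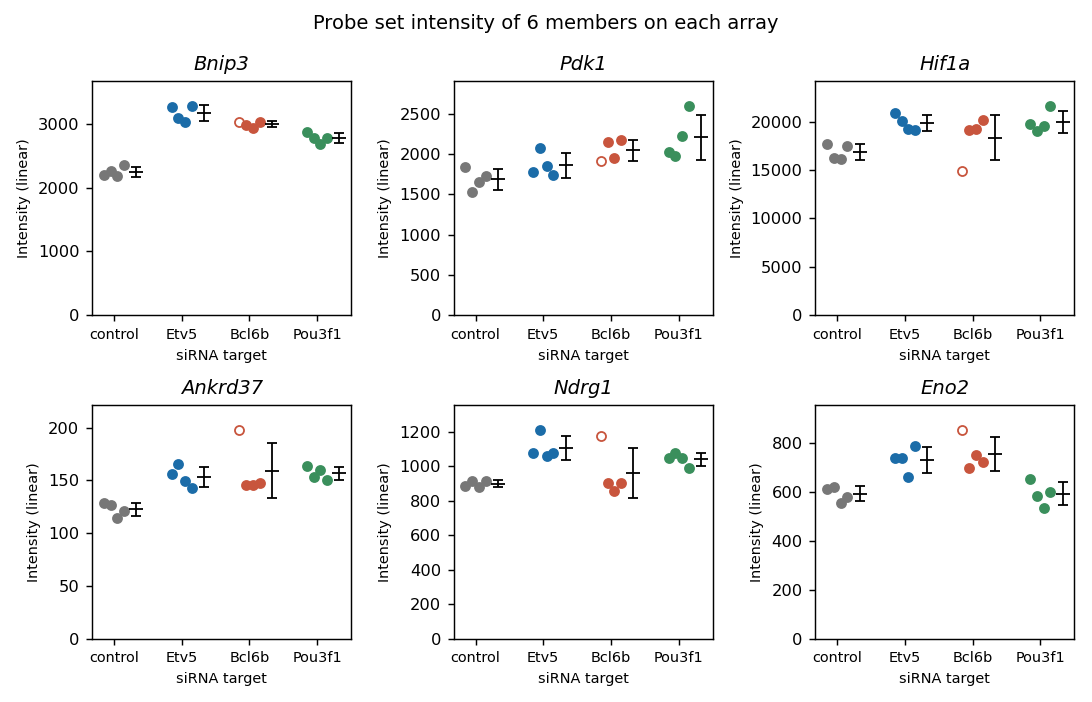
Probe set intensity (vertical axis, linear, from 0) of 6 members on each array (points), by siRNA target, with the mean and SD of each group as a bar beside the points and Bcl6b knockdown replicate 1 as an open point. Bnip3 separates all knockdown arrays from the controls, Eno2 in Pou3f1 knockdown lies at the control level, and the open point departs from its group for Hif1a, Ankrd37, Ndrg1 and Eno2.

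Among the enzymes of the upper part of glycolysis, hexokinases did not pass the test, and the liver-type phosphofructokinase and aldolase A did not with 16 arrays but did so in at least 1 knockdown in the 15-array fit and with array weights. In what follows, the range in brackets after such an adjusted p is the lowest and highest over the 26 other settings (25 for Pfkfb4), among them each array left out in turn. Pfkl, the liver-type phosphofructokinase that commits glucose to glycolysis, read 1299.8, 1324, 1266 and 1188 in control and 1524, 1307, 1467 and 1674 in Etv5 knockdown. In Bcl6b knockdown it read 2280.4, 1433, 1518 and 1467 and in Pou3f1 knockdown 1487, 1419, 1313 and 1491. The Bcl6b arrays all exceeded the controls, replicate 1 by most, whereas 1 array each of Etv5 and Pou3f1 knockdown lay within the control range. Pfkl rose in the 15-array fit by 0.23 ± 0.062 in Etv5 knockdown, adjusted p 0.0237 (range 0.00272 to 0.808), and by 0.21 ± 0.067 in Bcl6b knockdown, adjusted p 0.0456 (range 0.00632 to 0.350). In Pou3f1 knockdown the difference was 0.17 ± 0.062 (adjusted p 0.0852). In a 15-array fit of all probe sets, the chosen one passed in neither Etv5 nor Bcl6b knockdown (limma adjusted p 0.0786 and 0.0964). The next Pfkl probe set by brightness differed there by 0.21 and 0.16 (adjusted p 0.242 and 0.398).

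Aldoa, which cleaves fructose bisphosphate into triose phosphates, read 9606, 9968, 10166 and 9120.2 in control. It read 11278, 10344, 10948 and 11434 in Etv5, 13163, 10300.1, 10544 and 10442 in Bcl6b and 10430.3, 10057, 9579 and 9301 in Pou3f1 knockdown. The Etv5 and Bcl6b arrays lay above all controls, and those of Pou3f1 knockdown overlapped them. Aldoa rose in Etv5 knockdown in the 15-array fit by 0.18 ± 0.041, adjusted p 0.00979 (range 0.00108 to 0.602). Its difference was 0.10 ± 0.045 in Bcl6b (adjusted p 0.149) and 0.0185 ± 0.041 in Pou3f1 knockdown (0.812). In a 15-array fit of all probe sets, the chosen one kept its call in Etv5 knockdown (limma adjusted p 0.0359). The other Aldoa probe sets differed there by 0.034 to 0.18 and did not pass (adjusted p 0.152 to 0.795). All are of a kind that can also bind transcripts of related genes or pseudogenes.

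Triose phosphate isomerase was the one glycolytic enzyme that rose in all 3 knockdowns in the 15-array fit. Tpi1 read 9156, 8876, 9051 and 8721 in control, 10197, 10047, 9966 and 9979 in Etv5, 12029, 10181, 9798 and 9382 in Bcl6b and 10277, 9689, 9666 and 9531 in Pou3f1 knockdown. No knockdown array fell within the control range, and Bcl6b knockdown replicate 1 was the highest of the 16. The rise was 0.17 ± 0.032 in Etv5, adjusted p 0.00220 (range 0.000500 to 0.450), 0.13 ± 0.034 in Bcl6b, adjusted p 0.0220 (range 0.0141 to 0.333), and 0.13 ± 0.032 in Pou3f1 knockdown, adjusted p 0.0124 (range 0.00567 to 0.610). Its probe set is of a kind that can also bind transcripts of related genes or pseudogenes, but the other probe sets of Tpi1 were higher in all 3 knockdowns as well, by 0.10 to 0.31 with 16 arrays.

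Pgk1, phosphoglycerate kinase of the first step that yields ATP, read 11964, 11835, 11428 and 11961 in control and 13266, 12610.5, 12743 and 13259 in Etv5 knockdown. In Bcl6b knockdown it read 12147, 12394, 12710.2 and 12451 and in Pou3f1 knockdown 12854, 12225, 12278 and 11649. The Etv5 and Bcl6b arrays all lay above the controls, and 1 Pou3f1 array lay within them. It rose in Etv5 knockdown in the 15-array fit by 0.14 ± 0.032, adjusted p 0.00984 (range 0.000633 to 0.278), and with 16 arrays the adjusted p was 0.0701.

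Eno2 differed between knockdowns. This enolase isoform, which makes phosphoenolpyruvate, read 612, 620.1, 555 and 577 in control and 652, 584, 534 and 598 in Pou3f1 knockdown, which overlapped. It read 739.6, 739, 659 and 788 in Etv5 and 853, 696, 749 and 723 in Bcl6b knockdown, all above the controls. Eno2 rose in Bcl6b knockdown by 0.35 ± 0.078 with 16 arrays (limma adjusted p 0.0229) and by 0.29 ± 0.068 with 15 (0.0109). The call was lost in 4 of 26 settings, 2 of them without control replicate 3 or 4 (adjusted p 0.0786 and 0.0708). In Etv5 knockdown the difference was 0.30 ± 0.078, at an adjusted p of 0.0611 with 16 arrays and 0.00451 (range 0.000593 to 0.203) with 15. In Pou3f1 knockdown the mean was 592 ± 48.1 against 591 ± 30.6 in control (SD, n = 4 each).

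Lactate dehydrogenase A, which turns pyruvate into lactate, read 7027, 6903, 6878 and 6863 in control and 7507, 7028, 7529 and 7668 in Etv5 knockdown. Ldha read 6394, 7057, 7240.4 and 7093 in Bcl6b and 6888, 6497, 6711 and 6723 in Pou3f1 knockdown. Etv5 knockdown arrays lay just above the controls, the Bcl6b arrays did so except replicate 1, which was lowest of all, and 3 of 4 Pou3f1 arrays lay below the controls. The rise in Etv5 knockdown was 0.10 ± 0.03 in the 15-array fit, adjusted p 0.0405 (range 0.00749 to 0.602). It did not pass in a 15-array fit of all probe sets (limma adjusted p 0.0785).

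Pfkfb4, a dim gene whose product sets the level of the phosphofructokinase activator fructose 2,6-bisphosphate, was the glycolytic member that fell. It read 34.6, 36.9, 35.3 and 33.3 in control and 28.2, 22.1, 21.2 and 26.6 in Pou3f1 knockdown. In Etv5 knockdown it read 25.6, 26.7, 31.2 and 27.2 and in Bcl6b knockdown 32.4, 21.7, 25.2 and 35.9. Arrays of Pou3f1 and Etv5 knockdown lay below all controls, and those of Bcl6b knockdown overlapped them. In the 15-array fit Pfkfb4 fell in Pou3f1 knockdown (-0.51 ± 0.13, adjusted p 0.0144 (range 0.00431 to 0.223)), and it differed by -0.33 ± 0.13 in Etv5 (adjusted p 0.107) and -0.36 ± 0.14 in Bcl6b knockdown (0.0969). The fall in Pou3f1 knockdown did not pass in a 15-array fit of all probe sets (limma adjusted p 0.0548). At such intensities the added pseudocount of 1 understates a change.

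The 9 other glycolytic members passed the test in no knockdown. These were Hk1, Hk2, Pfkm, Pfkp, Aldoc, Pgam1, Pkm, Ldhb and Pfkfb3, which cover hexokinases, the muscle and platelet phosphofructokinases, aldolase C, phosphoglycerate mutase, pyruvate kinase, lactate dehydrogenase B and the second fructose 2,6-bisphosphate enzyme. Their log2 differences in the 15-array fit ran from -0.095 (Aldoc) to 0.096 (Ldhb) in Etv5, -0.10 (Hk2) to 0.11 (Pfkfb3) in Bcl6b and -0.16 (Hk1) to 0.14 (Aldoc) in Pou3f1 knockdown. Hk1 read 676 ± 41.3 in Pou3f1 knockdown and 756 ± 56.1 in control, and Pkm 9057 ± 313 and 9775 ± 310.2. Ldhb depended most on 1 array: it read 2489 on Bcl6b knockdown replicate 1 while replicates 2 to 4 ran from 1143 to 1242, beside 1183 to 1315 in control.

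Glucose transporters went in different directions. Slc2a1, the main glucose carrier of dividing cells, read 2229, 2156, 2357 and 2391 in control. It read 2619.6, 2832, 2448 and 2555 in Etv5, 3992, 2452, 2384 and 2635 in Bcl6b and 2787, 2587, 2455 and 2778 in Pou3f1 knockdown. All arrays of Etv5 and Pou3f1 knockdown exceeded the controls, and in Bcl6b knockdown 1 array lay within their range while replicate 1 was far above. Slc2a1 rose in the 15-array fit by 0.19 ± 0.052 in Etv5, adjusted p 0.0239 (range 0.0102 to 0.942), and by 0.21 ± 0.052 in Pou3f1 knockdown, adjusted p 0.0118 (range 0.00821 to 0.797). In Bcl6b knockdown its difference moved from 0.30 ± 0.12 with 16 arrays to 0.13 ± 0.056 with 15 (adjusted p 0.165). In a 15-array fit of all probe sets, the chosen one passed in Pou3f1 (limma adjusted p 0.0422) but not in Etv5 knockdown (0.0773). The other Slc2a1 probe sets differed there by 0.074 to 0.16 in Etv5 and 0.092 to 0.12 in Pou3f1 knockdown. None of them passed in these knockdowns (adjusted p 0.105 to 0.713).

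Slc2a3, a glucose carrier of high affinity, read 501, 518, 427 and 432 in control and 334, 326, 421 and 384 in Etv5 knockdown. Slc2a3 read 623, 492, 467 and 413 in Bcl6b and 465, 449, 478 and 404 in Pou3f1 knockdown. Only the Etv5 arrays lay below all controls. It fell in Etv5 knockdown in the 15-array fit (-0.36 ± 0.088, adjusted p 0.0139 (range 0.00205 to 0.442)), and differed by -0.0355 ± 0.095 in Bcl6b and -0.0615 ± 0.088 in Pou3f1 knockdown (adjusted p 0.848 and 0.700). The chosen probe set did not pass in Etv5 knockdown in a 15-array fit of all probe sets (limma adjusted p 0.0515).

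Pdk1 read 1838, 1528, 1652 and 1727 in control and 2029, 1982, 2222 and 2598 in Pou3f1 knockdown. It read 1779, 2079, 1854 and 1735 in Etv5 and 1918, 2145, 1951 and 2179.8 in Bcl6b knockdown. Pou3f1 and Bcl6b arrays lay above all controls, and Etv5 arrays overlapped them. Pdk1 rose in Pou3f1 knockdown by 0.38 ± 0.086 (limma adjusted p 0.0288), a call lost in 7 of 26 settings, among them the fits without control replicate 2, 3 or 4 (adjusted p 0.108, 0.0928 and 0.0601) and without Pou3f1 knockdown replicate 3 or 4 (0.0817 and 0.0795). In Bcl6b knockdown the difference was 0.28 ± 0.086 (adjusted p 0.0927) with 16 arrays and 0.31 ± 0.084 with 15, adjusted p 0.0225 (range 0.00145 to 0.242). In fits of all probe sets, the chosen one did not pass in Bcl6b knockdown with 15 arrays (limma adjusted p 0.0599). In Pou3f1 knockdown it did not pass there with 16 arrays (limma adjusted p 0.0913) but did with 15 (0.0186). Another Pdk1 probe set passed in all 3 knockdowns in a fit of all 45037 probe sets, with log2 differences of 0.25 ± 0.051, 0.26 ± 0.051 and 0.30 ± 0.051 in Etv5, Bcl6b and Pou3f1 knockdown (adjusted p 0.0445, 0.0211 and 0.0128).

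The lactate and pyruvate carrier Slc16a1 and the kinase Pdk3 passed in no knockdown. Slc16a1 read 12220.5 ± 546 in Etv5 knockdown against a control mean of 11271 ± 478, which is 0.12 ± 0.12 on the log2 scale with adjusted p 0.860 with 16 arrays and 0.0562 with 15. On Bcl6b knockdown replicate 1 it read 7436, while the remaining arrays of the group ran from 11827 to 12395.

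Hif1a, the oxygen-regulated subunit of the HIF factor itself, rose in all 3 knockdowns without Bcl6b knockdown replicate 1, and the calls with it depended on the probe set. The brightest probe set read 17766, 16233, 16149.7 and 17489 in control, 20959.5, 20149, 19286 and 19162 in Etv5, 14912, 19157, 19276 and 20241 in Bcl6b and 19797, 19069.5, 19550.4 and 21656 in Pou3f1 knockdown. Every knockdown array exceeded the controls except Bcl6b knockdown replicate 1, which lay below them all. In the 15-array fit it rose by 0.23 ± 0.043 in Etv5, adjusted p 0.00169 (range 0.000144 to 0.425), by 0.21 ± 0.046 in Bcl6b, adjusted p 0.00709 (range 0.000496 to 0.923), and by 0.24 ± 0.043 in Pou3f1 knockdown, adjusted p 0.00114 (range 0.000992 to 0.617). With 16 arrays it passed in none (adjusted p 0.184, 0.416 and 0.147).

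The next Hif1a probe sets by brightness, which were chosen for the text after their values were seen, had larger log2 differences. The second probe set read 1887, 2017, 2084 and 1998 in control, 3117, 3110.2, 3008 and 3156 in Etv5, 160.0, 2777, 2722 and 2873 in Bcl6b and 2784, 2823, 2792 and 3025 in Pou3f1 knockdown, so that only Bcl6b knockdown replicate 1, at 160.0, was below the controls. Without that array its log2 differences were 0.63 ± 0.036, 0.48 ± 0.039 and 0.52 ± 0.036 (limma adjusted p 1.60e-07, 5.79e-06 and 1.48e-06), and with it the Bcl6b difference was -0.55 ± 0.67 (adjusted p 0.728). The third read 1757, 1607, 1494 and 1809 in control, 2545, 2694, 2311 and 2587 in Etv5, 2562, 2259.7, 2411 and 2596 in Bcl6b and 2212, 2337, 2362 and 2666 in Pou3f1 knockdown. All 12 knockdown arrays lay above the controls, replicate 1 of Bcl6b knockdown included. It rose with 16 arrays by 0.61 ± 0.075, 0.56 ± 0.075 and 0.52 ± 0.075 (adjusted p 0.00125, 0.00179 and 0.00378 over 45037 probe sets). The remaining Hif1a probe set read between 5.66 and 12.7 on every array and passed nowhere.

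**Figure D5:**
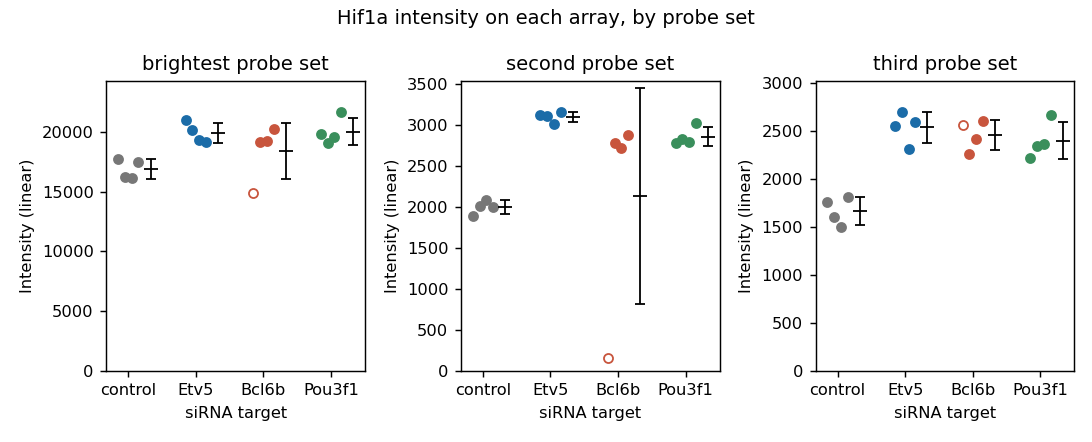
Intensity (vertical axes, linear, from 0, each panel on its own scale) of the 3 bright Hif1a probe sets on each array (points), by siRNA target, with mean and SD of each group and Bcl6b knockdown replicate 1 as an open point. In every panel the filled knockdown points lie above the controls, and the open point drops below the controls for the brightest and the second probe set but not for the third.

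Control arrays of Ankrd37 read 129, 126, 114 and 121, and those of Etv5 knockdown 156, 165, 149.8 and 143. Bcl6b knockdown arrays read 198, 146, 146 and 147 and Pou3f1 knockdown arrays 164, 153, 159.6 and 150.0. No knockdown array reached down to the controls, and replicate 1 of Bcl6b knockdown was the highest. With 16 arrays it rose in Bcl6b knockdown by 0.36 ± 0.093 (limma adjusted p 0.0469), a call lost in 18 of 26 settings, 14 of which leave out 1 array (adjusted p up to 0.140, without control replicate 3). In the 15-array fit the rise was 0.32 ± 0.063 in Etv5, adjusted p 0.00283 (range 0.000733 to 0.307), 0.25 ± 0.068 in Bcl6b, adjusted p 0.0224 (range 0.00386 to 0.265), and 0.35 ± 0.063 in Pou3f1 knockdown, adjusted p 0.00125 (range 0.000333 to 0.214).

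Ndrg1, a stress-induced gene that also responds to hypoxia, rose in Etv5 and Pou3f1 knockdown in the 15-array fit. It read 885, 917, 877 and 913 in control, 1076, 1212, 1061 and 1075 in Etv5 and 1049, 1075, 1046 and 987 in Pou3f1 knockdown, all above the controls. Bcl6b knockdown arrays read 1175, 902, 859 and 900.4, of which replicate 1 alone exceeded the controls. It rose in the 15-array fit by 0.30 ± 0.046 in Etv5, adjusted p 0.000338 (range 4.40e-05 to 0.468), and by 0.21 ± 0.046 in Pou3f1 knockdown, adjusted p 0.00570 (range 0.000452 to 0.702), with a difference of -0.0177 ± 0.049 in Bcl6b knockdown (adjusted p 0.854). Another Ndrg1 probe set fell in Bcl6b knockdown with 16 arrays (-0.22 ± 0.049, adjusted p 0.0390 over all probe sets), with 339, 367, 339 and 347 against 408, 410.1, 399.6 and 408 in control, while in Etv5 and Pou3f1 knockdown its differences were 0.15 ± 0.049 and 0.10 ± 0.049 (adjusted p 0.446 and 0.295).

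Adm encodes the vasodilator peptide adrenomedullin. It read 579.7, 652, 628 and 618 in control, 692, 638, 663 and 638 in Etv5, 482, 698, 733 and 694 in Bcl6b and 772, 672, 712 and 664 in Pou3f1 knockdown. Pou3f1 arrays all exceeded the controls, as did those of Bcl6b knockdown but for replicate 1, which was the lowest of the 16, and Etv5 arrays overlapped them. Adm rose in the 15-array fit by 0.19 ± 0.057 in Bcl6b, adjusted p 0.0376 (range 0.0143 to 0.987), and by 0.19 ± 0.053 in Pou3f1 knockdown, adjusted p 0.0305 (range 0.0186 to 0.781). With 16 arrays the Bcl6b difference was 0.0560 ± 0.10, and its sign turned under median centring (-0.00359) and without Bcl6b knockdown replicate 3 (-0.00693). In a 15-array fit of all probe sets, the chosen one passed in neither knockdown (limma adjusted p 0.0599 and 0.0698). The other Adm probe set differed in Bcl6b knockdown by 0.44 with 16 arrays and 0.20 with 15 (limma adjusted p 0.273 and 0.0793).

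P4ha1, a collagen prolyl hydroxylase subunit, read 1559.9, 1546, 1468 and 1539.9 in control and 1676, 1689.9, 1741 and 1667 in Bcl6b knockdown, which lay above all controls. Pou3f1 knockdown arrays, at 1409, 1331, 1458 and 1466, lay below all controls, and those of Etv5 knockdown, at 1669, 1514, 1711 and 1617, overlapped them. P4ha1 rose in Bcl6b knockdown in the 15-array fit by 0.15 ± 0.046, adjusted p 0.0417 (range 0.00989 to 0.562), and its difference in Pou3f1 knockdown was -0.11 ± 0.043 (adjusted p 0.104). A dimmer P4ha1 probe set read 29.0 on Bcl6b knockdown replicate 1 and 732, 641, 688 and 674 on the control arrays. It gave a Bcl6b difference of -0.94 ± 0.77 with that array and 0.25 ± 0.057 without it, and the mean over both probe sets turned negative with 16 arrays (-0.39). In a 15-array fit of all probe sets, the chosen one did not pass in Bcl6b knockdown, whereas the dimmer one did (limma adjusted p 0.0678 and 0.0201). There, the dimmer one also rose in Etv5 knockdown by 0.24 ± 0.053 (limma adjusted p 0.0245). In Pou3f1 knockdown it differed by 0.13 ± 0.053 (adjusted p 0.212), opposite in sign to the chosen probe set.

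Kdm3a, a histone demethylase that HIF induces, read 2228, 2239, 2292 and 2352 in control, 2663, 2672, 2592 and 2346 in Etv5, 1534, 2504, 2453 and 2469 in Bcl6b and 2429, 2372, 2471 and 2386 in Pou3f1 knockdown. Of the 12 knockdown arrays 10 lay above the controls, 1 Etv5 array lay within their range and Bcl6b knockdown replicate 1 far below them. In the 15-array fit Kdm3a rose in Etv5 knockdown by 0.17 ± 0.039, adjusted p 0.00902 (range 0.00311 to 0.942), and differed by 0.12 ± 0.042 in Bcl6b (adjusted p 0.0763) and 0.0841 ± 0.039 in Pou3f1 knockdown (0.177).

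The 6 other tested hypoxia response genes passed in no knockdown when read from the chosen probe set. They were the oxygen-sensing hydroxylases Egln1 and Egln3, the angiogenic factor Vegfa, the collagen hydroxylase subunit P4ha2, the endoplasmic reticulum oxidase Ero1a (Ero1l in the gene list) and the mitochondrial protein gene Higd1a. Their log2 differences in the 15-array fit ran from -0.084 (Egln3) to 0.18 (Vegfa) in Etv5, -0.11 (Egln3) to 0.10 (Higd1a) in Bcl6b and -0.13 (Egln3) to 0.079 (Higd1a) in Pou3f1 knockdown. Vegfa read 277 ± 14.5 in Etv5 knockdown and 245 ± 21.8 in control (adjusted p 0.101 with 15 arrays). Higd1a read 8002 on Bcl6b knockdown replicate 1 and between 5726 and 6052 on replicates 2 to 4. The next Higd1a probe set by brightness rose in each knockdown in a 15-array fit of all probe sets. Its log2 differences were 0.18 in Etv5, 0.29 in Bcl6b and 0.21 in Pou3f1 knockdown (limma adjusted p 0.0488, 0.00314 and 0.0159). With all arrays it passed in Bcl6b knockdown alone (0.35, limma adjusted p 0.0166). The dimmest Higd1a probe set passed only in Pou3f1 knockdown in that 15-array fit (0.31, limma adjusted p 0.0308).

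Direct tests between knockdowns asked whether these responses differed, and with 16 arrays 3 genes did in 1 comparison each. Bnip3 was higher in Etv5 than in Pou3f1 knockdown, by 0.19 ± 0.041 (limma adjusted p 0.0262), the only one of 34 members called there, where 1.44% of all genes were (0.933% higher and 0.511% lower). The call was lost without Etv5 knockdown replicate 1 or 4 and without Pou3f1 knockdown replicate 2, 3 or 4, and under median centring or without an intensity trend. Eno2 and P4ha1 were higher in Bcl6b than in Pou3f1 knockdown, by 0.35 ± 0.078 (adjusted p 0.0262) and 0.26 ± 0.048 (0.00619), 2 of 34 members with 2.18% of all genes called (1.44% higher and 0.736% lower). That count was 1 without Bcl6b knockdown replicate 3 or Pou3f1 knockdown replicate 2, 3 or 4, and 0 under median centring or with only the groups compared in the fit. Between Etv5 and Bcl6b knockdown limma called 0 members (1.49% of all genes, 0.906% higher and 0.583% lower). At an unadjusted p under 0.05 there were 4 of 34 members (11.8%) beside 14.3% of all genes.

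Without Bcl6b knockdown replicate 1 the differences between knockdowns numbered more. Etv5 exceeded Pou3f1 knockdown for 5 members, where 6.36% of all genes were called (3.75% higher and 2.61% lower): Eno2 by 0.30, P4ha1 by 0.20, Bnip3 by 0.19, Aldoa by 0.16 and Ldha by 0.15. Adjusted p for these was 0.00607, 0.00768, 0.00324, 0.0267 and 0.00564. Ndrg1 was higher in Etv5 than in Bcl6b knockdown by 0.32 ± 0.049 (adjusted p 0.000859), and Ldhb by 0.20 ± 0.054 (0.0438), where 4.5% of all genes were called (2.91% higher and 1.6% lower). Ndrg1 was also lower in Bcl6b than in Pou3f1 knockdown (-0.23 ± 0.049, adjusted p 0.00870), and Eno2 and P4ha1 stayed higher there (0.29 and 0.26, adjusted p 0.0158 and 0.00144), with 5.11% of all genes called (2.88% higher and 2.23% lower).

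Of 30 tested further genes that hypoxia is reported to induce, Ccng2, an atypical cyclin, was the only one called with 16 arrays, and it rose in all 3 knockdowns, from 2323 ± 103 in control to 3482 ± 157 in Etv5, 3472 ± 209.9 in Bcl6b and 3524 ± 121 in Pou3f1 knockdown (SD, n = 4 each). Its log2 differences were 0.58, 0.58 and 0.60 (limma adjusted p 1.68e-05, 1.91e-05 and 1.20e-05). In the 15-array fit 6 of the 30 rose in Etv5, 6 rose and 2 fell in Bcl6b, and 5 rose and 1 fell in Pou3f1 knockdown, where 9.52%, 10.9% and 11.4% of all genes were called. Of these Insig2, a regulator of sterol synthesis, rose by 0.22, 0.24 and 0.26 (limma adjusted p 0.000491, 0.000569 and 8.93e-05), and Narf, a protein that binds prelamin A, by 0.46, 0.64 and 0.34 (0.00220, 0.000205 and 0.0156). Those that fell were Anxa2 and Lox in Bcl6b and Angptl4 in Pou3f1 knockdown. In Bcl6b knockdown the log2 differences of the list ran from -0.93 to 0.64 in that fit. Of 15 tested genes of oxygen sensing and the HIF factors limma called 0 with 16 arrays in any knockdown. At an unadjusted p under 0.05 they numbered 1, 3 and 2, beside 11%, 19.6% and 12.2% of all genes. The smallest p values were those of Hif3a in Etv5 (0.35, adjusted p 0.351), Siah1a in Bcl6b (-0.21, 0.0665) and Cul2 in Pou3f1 knockdown (-0.17, 0.179). The 15-array fit called 1, 2 and 2 of the 15: Siah2 rose in Etv5 knockdown, Cited2 rose and Siah1a fell in Bcl6b knockdown (Siah1a -0.26, limma adjusted p 0.00296), and Cited2 rose and Cul2 fell in Pou3f1 knockdown (Cul2 adjusted p 0.0406).

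Of 27 tested genes of pyruvate entry and the citrate cycle, Dlat, the acetyltransferase subunit of pyruvate dehydrogenase, fell in Bcl6b knockdown (-0.27, limma adjusted p 0.0142). In both other knockdowns limma called 0. The smallest p there belonged to Fh1 in Etv5 (-0.096, adjusted p 0.452) and Dlst in Pou3f1 knockdown (-0.14, 0.247). At an unadjusted p under 0.05 the list held 1 gene in Etv5, 9 in Bcl6b (1 higher and 8 lower) and 1 in Pou3f1 knockdown. Of all genes 11%, 19.6% and 12.2% had such a p. None of 12 other glycolytic isoenzymes and regulators, 9 pentose phosphate pathway genes and 10 mitophagy and autophagy adaptors was called by limma with 16 arrays. At an unadjusted p under 0.05 these lists held 0, 0 and 1 gene in Etv5, 3, 1 and 2 in Bcl6b, and 0 of each in Pou3f1 knockdown. The shares of all genes were the same 11%, 19.6% and 12.2%. Bpgm, the enzyme of 2,3-bisphosphoglycerate, differed by -0.23 in Etv5 knockdown (adjusted p 0.474) and Pgm2, a phosphoglucomutase, by -0.40 in Bcl6b knockdown (0.133). The transaldolase gene Taldo1 differed by -0.079, -0.11 and -0.099 in Etv5, Bcl6b and Pou3f1 knockdown (adjusted p 0.681, 0.250 and 0.497), and the autophagy regulator Becn1 by -0.095 and 0.11 in Etv5 and Bcl6b knockdown (0.377 and 0.154). In Pou3f1 knockdown the smallest p of these lists belonged to Eno4 (0.19, adjusted p 0.792) and Gabarapl1 (-0.21, 0.455). Some of these passed in the 15-array fit: Bpgm fell in Etv5 knockdown (limma adjusted p 0.0249), Pgm2 fell (-0.20, 0.0173) and Becn1 rose (0.12, 0.0457) in Bcl6b knockdown, and Gabarapl1 fell in Pou3f1 knockdown (0.0496). Pink1 also fell in Bcl6b knockdown in that fit, and 0 of the 9 pentose phosphate genes were called by limma in any knockdown. At an unadjusted p under 0.05 they numbered 2, 1 and 1, beside 24.8%, 26.2% and 26.8% of all genes.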

How the data were processed

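Expression was measured on 16 3'-based arrays of mouse cultures, 4 per group, with groups taken from the labels. The authors deposited 1 linear intensity per probe set and array. Affymetrix Expression Console 1.1, MAS5, GCRMA and Partek 6.4 appear in the submitters' processing notes without a role or order, and the step that made the deposited intensities was not given in the sources used here. Of 45037 probe sets without controls, 34945 had 1 gene in the platform annotation, 932 several and 9160 none. Values were log2(intensity + 1), with a pseudocount of 1, computed from the deposited intensities without further scaling. Array medians ran from 15.8 to 17.3. Genes above the array's median on at least 4 arrays were tested (11145) with limma 3.58.1 in R 4.3.3 (group means, intensity trend, all 4 groups), with Benjamini-Hochberg adjusted p under 0.05 as the threshold. Python 3.11.15 and matplotlib 3.10.9 drew the plots. The limma step was tested on simulated data.

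Each array's value is given for members called in a knockdown with 16 or 15 arrays, and the others by range. Members and lists were chosen with earlier results of these data known. Alternatives were scaling, pseudocount, filter, probe set choice, array weights, trend, the groups in the fit, the replicate number as a block, and each array left out. Replicate numbers did not pair the samples: of 24 same-numbered pairs of arrays, 5 had deviations from the group means that correlated over 0.1 (range -0.26 to 0.20). Sequences are from RefSeq.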

Additional observations from a re-analysis of the deposited data

Results flagged for a closer look

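In groups of 4 arrays, 1 array stood farther from its neighbours than Dixon's 95% limit in 9 of 80 groups examined, where chance gives about 1 in 20. Replicate 1 of Bcl6b knockdown was that array in 6 of them: Pfkl at 2280.4 (others 1433 to 1518), Aldoa at 13163 (10300.1 to 10544), Adm at 482 (694 to 733), Ankrd37 at 198 (146 to 147), Ndrg1 at 1175 (859 to 902) and Kdm3a at 1534 (2453 to 2504). The part of that array's 3' bias in these values was not tested. In Etv5 knockdown, replicate 2 was apart for Ndrg1 at 1212 (others 1061 to 1076) and for the mean shift of glycolytic enzymes at -0.0163 (0.0704 to 0.0843). In Pou3f1 knockdown, replicate 1 was apart for that shift at 0.0613 (-0.0449 to -0.0397).

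A direct limma test between knockdowns passed for Bnip3 between Etv5 and Pou3f1 knockdown (0.19 on the log2 scale), and between Bcl6b and Pou3f1 knockdown for Eno2 (0.35) and P4ha1 (0.26). None of these calls held under median centring, that of Bnip3 was also lost without an intensity trend, and those of Eno2 and P4ha1 with only the groups compared in the fit. The P4ha1 call is that of its chosen probe set, and no test between knockdowns is given for the dimmer one. That one read 29.0, 849, 803 and 793 in Bcl6b and 753, 715, 741 and 774 in Pou3f1 knockdown. Of these Bcl6b arrays replicate 1 alone did not lie above all Pou3f1 arrays.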

How the results depend on the processing

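Bnip3 kept its call in all 3 knockdowns in each of the 26 other settings, while the counts of members called moved. With array weights they were 14, 14 and 12 in Etv5, Bcl6b and Pou3f1 knockdown, and with only the groups compared in the fit 12, 1 and 8. With the mean over probe sets they were 3, 7 and 1. The share of all genes called under these settings is not given here. More calls among the members therefore cannot be told from more calls among all genes, here or between knockdowns. Quantile normalization gave 2 in Etv5, and median centring gave 1 in Bcl6b knockdown, where over all genes the latter turned 184 higher and 174 lower calls into 126 and 617. With the replicate block the counts were 2, 3 and 1 in Etv5, Bcl6b and Pou3f1 knockdown, and 9 of 24 same-numbered comparisons had the own number closest. Leaving out 1 array gave 1 to 13, 1 to 9 and 1 to 9 members, and 1 to 2, 1 to 3 and 1 to 3 in the 15 fits that kept Bcl6b knockdown replicate 1. Between knockdowns it gave 0 to 2 for Etv5 against Bcl6b, 0 to 5 for Etv5 against Pou3f1 and 1 to 3 for Bcl6b against Pou3f1. There, Etv5 against Bcl6b gave 1 with the mean over probe sets and 4 with array weights. Etv5 against Pou3f1 gave 0 under median centring or without an intensity trend, 8 with weights and 2 with only the groups compared. Bcl6b against Pou3f1 gave 0 under median centring or with only the groups compared, and 5 with weights.

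The Bcl6b shift of transporters and kinases moved from 0.109 to 0.0495 under median centring, 0.126 under quantile normalization, 0.0918 without a filter and 0.0820 with the mean over probe sets. That of glycolytic enzymes, 0.0672 with an SD of 0.103, was 0.00767 under median centring and 0.00674 with the mean over probe sets, and their Pou3f1 shift of -0.0160 became 0.0167 with a mean log2 floor of 5. That of other hypoxia genes in Bcl6b knockdown moved from 0.118 to 0.0581 under median centring and 0.0251 with the mean over probe sets. Leaving out 1 array gave 0.0421 to 0.0756, 0.0176 to 0.0971 and -0.0417 to -0.00632 for glycolytic enzymes in Etv5, Bcl6b and Pou3f1 knockdown, 0.00306 to 0.0375, 0.10 to 0.115 and 0.120 to 0.142 for transporters and kinases, and 0.140 to 0.169, 0.107 to 0.133 and 0.0858 to 0.110 for other hypoxia genes. Reversed were Adm in Bcl6b knockdown under median centring (-0.00359) and without Bcl6b knockdown replicate 3 (-0.00693), against 0.19 without replicate 1, and P4ha1 in Bcl6b knockdown with the mean over probe sets (-0.39). The causes were not tested. Of the values of single genes under these settings, 694 kept their side of the threshold, 79 passed it newly and 29 lost it. Weakly expressed members such as Pfkfb4 are limited by signal over background.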

Other observations

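Genes beside the members moved in Bcl6b knockdown when its replicate 1 was left out. Pink1, the kinase that marks damaged mitochondria for mitophagy, fell there (-0.46 on the log2 scale, limma adjusted p 9.72e-05 in the 15-array fit), with a difference of -0.24 and an adjusted p of 0.381 when all 16 arrays were fitted. In Etv5 and Pou3f1 knockdown Pink1 differed by 0.056 and 0.14 in the 15-array fit (adjusted p 0.584 and 0.116). The citrate cycle genes Dlat, Dlst and Suclg2, fell in Bcl6b knockdown in that fit (-0.21, -0.18 and -0.13, limma adjusted p 0.00367, 0.0284 and 0.0393), against 0.0142, 0.0531 and 0.134 with 16 arrays. Of the 27 genes of that list 23 were negative in Bcl6b knockdown with either set of arrays, with a list median of -0.070 in the 15-array fit, where 7333 of all 11145 genes were negative with a median of -0.042. The 3 of 27 called there stand beside 10.9% of all genes called. These genes were chosen after their values were seen.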
